A study of Mus musculus with 8 samples.

Results

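The genes described here are 10 components of bone morphogenetic protein (BMP) signalling: the receptor gene Bmpr1a, the SMAD genes Smad1, Smad4, Smad5, Smad6, Smad7 and Smad9, and the target genes Id1, Id2 and Id3. They were picked by gene symbol, and all 10 were found among the 15210 genes listed for this series. Smad9 was chosen because its level was lower in treated livers, so its values are given as a description with no test. The other 9 were chosen as relatives or targets of SMAD proteins or, for Bmpr1a, as a receptor that acts on them. RNA was sequenced from the livers of 8 female F1-TKm30 mice, 4 controls (dose 0) and 4 given MOCA for 4 weeks at a dose of 0.05%. MOCA is 4,4'-Methylenebis(2-chlorobenzenamine), an aromatic amine that serves as a hardener of polyurethane resins. By the series design, mice in both groups carried HSVtk mutant clone 30, a herpes simplex virus thymidine kinase cDNA, under the liver transthyretin enhancer and promoter on the immunodeficient NOG background. Their age was 17 or 21 weeks, and which mouse had which age was not stated. The genotype rests on the strain label and the series design; the treatment label calls the same mice C57BL, and the column names of the deposited table begin with "Wild". How MOCA was given was not stated either.

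BMPs are secreted ligands of the TGF-beta superfamily that bring type I and type II receptor kinases together at the cell surface. The activated type I receptor, such as that encoded by Bmpr1a, phosphorylates SMAD1, SMAD5 and SMAD9, which join SMAD4 and enter the nucleus to regulate genes, among them the Id genes. In the liver, BMPs from sinusoidal endothelial cells act on hepatocytes and induce hepcidin, the hormone that limits iron uptake and release.

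The promoter windows of the members show where short DNA motifs bound by SMAD proteins occur near the gene that was lower and near its feedback and target genes. RefSeq windows on GRCm38.p6, from 250 bases before to 50 bases after each gene's RefSeq start, were matched by symbol for 7 of the 10 members (9 windows); Id1, Smad4 and Smad7 had none. The motifs searched on both strands were the palindromic SMAD-binding element GTCTAGAC, the GC-rich element GGCGCC and the short element CAGAC, and no 2 of their matches in these windows overlapped. The windows of Smad9, chosen for its change, of the inhibitor Smad6 and of the targets Id2 and Id3 are printed 5′ to 3′ on the gene's strand, with motif matches in capitals.
Smad9, chr3:54755332-54755631, plus strand: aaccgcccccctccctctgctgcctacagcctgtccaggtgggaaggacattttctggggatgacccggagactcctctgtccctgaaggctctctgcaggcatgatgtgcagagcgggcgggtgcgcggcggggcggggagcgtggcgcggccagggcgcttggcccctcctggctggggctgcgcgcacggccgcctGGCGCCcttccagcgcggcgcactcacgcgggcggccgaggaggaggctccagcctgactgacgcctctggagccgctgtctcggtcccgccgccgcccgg
Smad6, chr9:64022010-64022309, minus strand: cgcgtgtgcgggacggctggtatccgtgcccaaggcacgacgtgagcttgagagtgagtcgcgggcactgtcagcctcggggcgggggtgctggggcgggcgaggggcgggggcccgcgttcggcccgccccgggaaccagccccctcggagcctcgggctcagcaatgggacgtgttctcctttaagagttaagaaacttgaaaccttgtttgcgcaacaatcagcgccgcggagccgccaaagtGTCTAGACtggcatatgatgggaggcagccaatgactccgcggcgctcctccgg
Id2, chr12:25096043-25096342, minus strand: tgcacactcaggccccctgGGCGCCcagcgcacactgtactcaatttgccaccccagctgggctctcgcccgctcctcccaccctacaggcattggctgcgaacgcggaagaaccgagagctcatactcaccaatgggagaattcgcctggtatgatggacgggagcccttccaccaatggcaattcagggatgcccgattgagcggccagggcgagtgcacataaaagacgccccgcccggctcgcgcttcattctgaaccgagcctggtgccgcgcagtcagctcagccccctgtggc
Id3, chr4:136143572-136143871, plus strand: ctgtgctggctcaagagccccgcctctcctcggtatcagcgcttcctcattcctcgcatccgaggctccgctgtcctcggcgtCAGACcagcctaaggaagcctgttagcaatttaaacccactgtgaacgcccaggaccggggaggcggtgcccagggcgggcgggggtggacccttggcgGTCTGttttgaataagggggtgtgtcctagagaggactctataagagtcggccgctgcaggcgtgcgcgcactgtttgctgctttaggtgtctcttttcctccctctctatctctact

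The Smad6 window held GTCTAGAC, starting 4 bases before the gene's start, as did 0.213% of all 32851 windows (70 windows). GGCGCC was present in the windows of Smad9 (51 bases before the start), Id2 (231 bases before), Bmpr1a and Smad5, and in 11.9% of all windows. CAGAC was present in the window of Id3, at 167 and 68 bases before the start, in 1 of the 3 windows of Smad5, 2 of which overlap and share a GGCGCC match, and in 49.6% of all windows. Distances are from the RefSeq start. The windows of Id2, Id3 and Bmpr1a and 1 window of Smad5 lie inside the longer gene spans that GENCODE gives, so relative to the GENCODE start these matches are downstream. All matches describe the letters of the windows only.

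Each mouse gave 1 library, with 15024945 to 17101844 reads in the listed genes, as recovered from the deposited values. Counted this way, each of the MOCA libraries (up to 15970453 reads) was shallower than each control library (from 16077424 reads). Reads outside the listed genes are not in these figures. Levels are TMM-scaled CPM, that is, library-size-scaled read counts with the authors' TMM factor, and 1 read was worth 0.0581 to 0.0648. Fold changes are differences of mean log2(value + 1), MOCA minus control, and for genes with low values this scale gives too small a change. MOCA livers had 48 genes called higher (0.4%) and 32 called lower (0.266%) among 12008 tested, 0.666% in all (limma, Benjamini-Hochberg adjusted p under 0.05). With columns at equal sums the split was 131 higher and 38 lower, and with upper quartile scaling 45 and 51. All 7 hepatocyte markers were listed and tested, and 0 of 7 lymphocyte markers were among the listed genes. The labels do not say whether the mice were housed or processed together. The p-values set the group difference against the spread between mice within a group. Any difference in housing or processing between the groups would be part of the group difference.

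Smad9 was the member that differed most between the groups. It encodes a receptor-regulated SMAD of the BMP branch, also known as SMAD8, and lies on the plus strand of chromosome 3, 54755582 to 54801257 (mm10, GENCODE ENSMUSG00000027796.2), where no other annotated gene overlaps it. Its level in control replicates 1 to 4 was 45.0, 33.3, 45.2 and 33.7, and in MOCA replicates 1 to 4 it was 19.9, 20.1, 21.4 and 15.9. The groups did not overlap, and the lowest control mouse was well above the highest MOCA mouse. The means were 39.3 ± 6.71 and 19.3 ± 2.38 (SD, n = 4 each), a log2 fold change of -0.98 (SE 0.13). The control mice formed a high and a low pair, whereas MOCA mice were closer together. These values rest on 260 to 775 reads per library. In whole liver RNA, fewer cells of a type and less RNA per cell cannot be told apart.

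**Figure D1:**
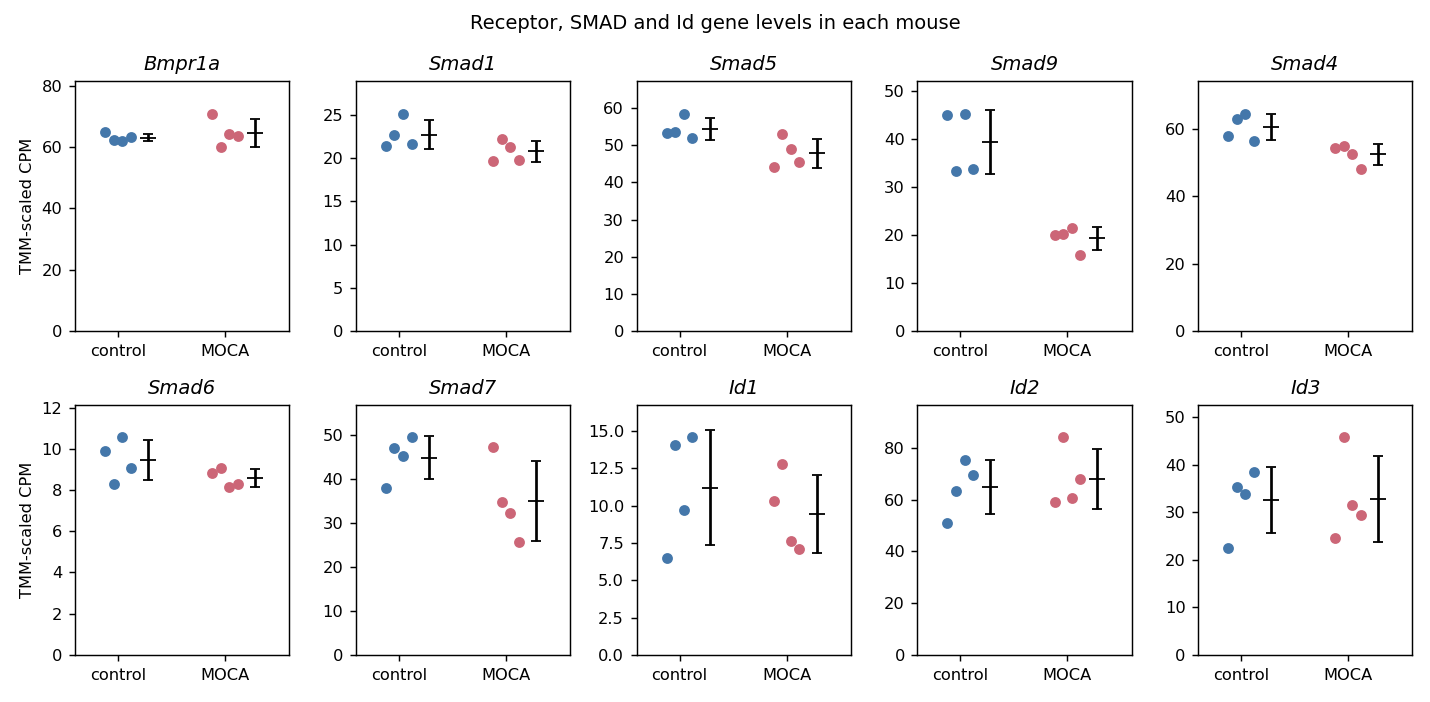
Level of each of the 10 genes (vertical axes, TMM-scaled CPM, starting at 0) in the 4 control (blue) and 4 MOCA (red) livers, 1 point per mouse, with mean and SD in black. The Smad9 points separate widely between the groups, the Smad4 points separate narrowly (lowest control 56.5, highest MOCA 55.1), and the others overlap.

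None of the other 9 members passed the test over all genes (limma; 0 of 9, against 0.666% of all tested genes). Of these 9, 3 had an unadjusted p under 0.05, each lower in MOCA livers, against 8.05% of all tested genes. edgeR and DESeq2 on the recovered reads also called 0 of the 9. Their median log2 fold change was -0.12, beside 0.01 over all tested genes, and 6 of the 9 were negative. All 10 members passed the filter on low values.

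The close relatives of Smad9 in the same branch were nearer to their control levels. Smad5 (chromosome 13, 56703010 to 56742377, plus strand) was 53.3, 53.6, 58.5 and 52.0 in control mice and 44.2, 52.9, 49.0 and 45.6 in MOCA mice. The groups overlapped in MOCA replicate 2. For Smad5 the log2 fold change was -0.18 (SE 0.08), with a 95% interval of -0.35 to -0.01 that is not adjusted for the number of genes, and limma's adjusted p was 0.255. Smad1 (chromosome 8, 79338395 to 79399518, minus strand) was 21.4 to 25.1 in control and 19.7 to 22.2 in MOCA mice (log2 fold change -0.12, 95% interval -0.30 to 0.05, limma adjusted p = 0.466). Smad4 encodes the partner shared by the BMP and TGF-beta branches (chromosome 18, 73639009 to 73703780, minus strand). It was 57.9, 63.1, 64.5 and 56.5 in control mice and 54.3, 55.1, 52.5 and 48.0 in MOCA mice. Its groups did not overlap, by a narrow margin; among all tested genes 4.96% were lower in MOCA livers without overlap. For Smad4 the log2 fold change was -0.20 (SE 0.07) and the limma adjusted p was 0.201.

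Set per kb of exon, so that genes of different length can be compared, Smad9 and Smad5 stood at about the same level in control livers. The length used joined all annotated exons of a gene and may exceed that of the transcript in liver. Comparisons per kb between genes, here and below, depend on that choice. Smad9 was 7.32 ± 1.25 CPM per kb and Smad5 was 7.33 ± 0.383, with Smad1 at 3.63 ± 0.269 (SD, n = 4). In MOCA livers Smad9 was 3.60 ± 0.444 per kb, near Smad1 at 3.31 ± 0.199, with Smad5 at 6.46 ± 0.527. As a share of the summed level of these 3 SMADs per kb, Smad9 made up 44.2%, 36.4%, 41.5% and 37.5% in control mice and 29.0%, 26.0%, 28.5% and 24.1% in MOCA mice. The shares of the groups did not overlap. The sum itself was 18.3 ± 1.69 per kb in control and 13.4 ± 1.01 in MOCA livers. Since Smad9 was chosen for its lower level, its share and this sum are descriptions with no test.

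**Figure D2:**
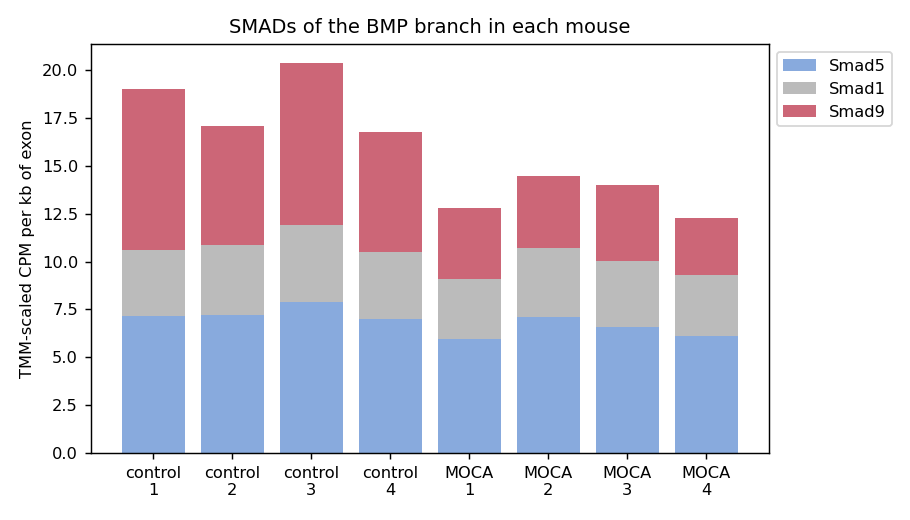
Level per kb of exon (vertical axis, TMM-scaled CPM per kb) of the 3 SMADs of the BMP branch, stacked, with 1 bar per mouse. The Smad9 segment is 6.20 to 8.43 high in control mice and 2.96 to 3.98 in MOCA mice, while the Smad1 and Smad5 segments differ less.

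Over all 10 members in control livers, the order per kb ran from Id2 (26.6 ± 4.29) through Id3 (18.2 ± 3.88) and Smad4 (16.3 ± 1.05) to Bmpr1a (9.94 ± 0.200), Smad7 (9.94 ± 1.09) and Id1 (9.67 ± 3.31). Smad5, Smad9 and Smad1 followed, and Smad6 was lowest at 2.95 ± 0.304. Id3 and Smad4 differed by less than the SD of Id3, and from Bmpr1a down to Smad9 each neighbour differed from the next by less than the larger SD of the pair. The other steps in the order were larger than the SDs.

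The receptor gene Bmpr1a (chromosome 14, 34410734 to 34503341, minus strand) was among the steadiest members. Its level was 64.8, 62.4, 62.0 and 63.3 in control mice and 70.9, 60.1, 64.1 and 63.6 in MOCA mice. The groups overlapped, with the highest and the lowest value both in MOCA mice. The log2 fold change was 0.03 with a 95% interval of -0.12 to 0.18 (limma adjusted p = 0.849), a sign that turned without MOCA replicate 1. An annotated antisense transcript, Gm17110, overlaps it. Smad4 is likewise overlapped by 1 antisense gene and Smad5 by 3 genes on its own strand, and none of these is among the listed genes. Whether reads were counted by strand was not stated.

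The inhibitory SMADs, which are induced by the pathway and limit it, differed in how much they varied. Smad7 blocks both the BMP and the TGF-beta branch (chromosome 18, 75367529 to 75395935, plus strand). It was 38.0, 47.0, 45.2 and 49.5 in control mice and 47.4, 34.7, 32.4 and 25.7 in MOCA mice. Of the MOCA mice, 3 were below the whole control range and replicate 1 was within it. The log2 fold change was -0.38 (SE 0.15, 95% interval -0.71 to -0.04) and did not pass the test (limma adjusted p = 0.244); without MOCA replicate 4 it was -0.24. Smad6, which acts mainly on the BMP branch (chromosome 9, 63953076 to 64022059, minus strand), was 8.31 to 10.6 in control and 8.16 to 9.09 in MOCA mice, with a log2 fold change of -0.12 (SE 0.10, limma adjusted p = 0.558).

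The Id genes encode helix-loop-helix proteins without a DNA-binding domain that hold back other transcription factors of that class, and they are standard readouts of BMP signals. Id1 (chromosome 2, 152736251 to 152737410, plus strand) was 6.51, 14.1, 9.69 and 14.6 in control mice and 10.3, 12.8, 7.65 and 7.09 in MOCA mice. The control mice alone spanned more than the MOCA mice did. For Id1 the log2 fold change was -0.20 (SE 0.23, 95% interval -0.71 to 0.31, limma adjusted p = 0.705), and it ranged from -0.41 without control replicate 1 to -0.06 without control replicate 4. Id3 (chromosome 4, 136143497 to 136145755, plus strand) was 22.5, 35.2, 33.9 and 38.4 in control mice and 24.6, 45.8, 31.6 and 29.4 in MOCA mice. Id2 (chromosome 12, 25093799 to 25097140, minus strand) was 51.0, 63.4, 75.4 and 69.6 in control mice and 59.0, 84.0, 60.5 and 68.1 in MOCA mice. Both genes overlapped widely between the groups. The log2 fold change was 0.00 for Id3 (0.0049, 95% interval -0.41 to 0.42, limma adjusted p = 0.991) and 0.07 for Id2 (95% interval -0.23 to 0.36, limma adjusted p = 0.842). Both signs turned without control replicate 1 and without MOCA replicate 2, and that of Id3 also with upper quartile scaling.

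Id1 and Id3 varied more from mouse to mouse within a group than Smad1 and Smad5 did: the SE of the log2 fold change was 0.23 and 0.19 for these Id genes and 0.08 for each of these SMADs. That SE was 0.13 for Id2 and 0.15 for Smad7, so not every Id gene varied more than every SMAD gene. Control replicate 1 was the lowest of the controls for Id1, Id2, Id3 and Smad7, and MOCA replicate 2 was the highest MOCA mouse for Id1, Id2 and Id3. Relative to the control mean, Id1 was at -0.64 and Id3 at -0.49 (log2) in control replicate 1. In MOCA replicate 2 Id1 was at 0.23, Id2 at 0.38 and Id3 at 0.51. Smad7 went another way in that mouse, at -0.35. Smad9 was at 0.21 in control replicate 1 and at -0.92 in MOCA replicate 2, so it was neither the lowest control nor the highest MOCA value in these mice.

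**Figure D3:**
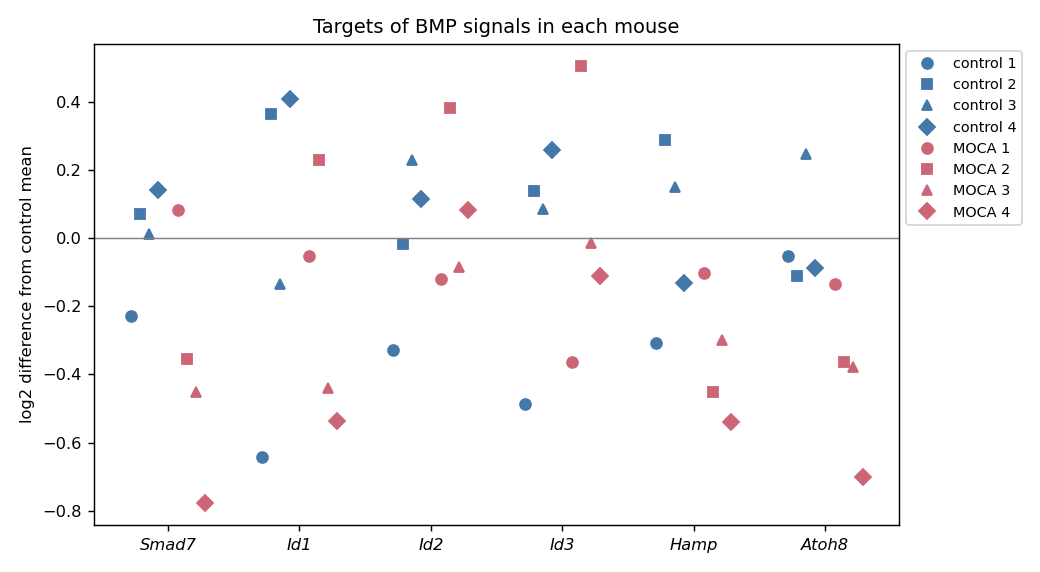
Log2 difference of each mouse from the control mean (vertical axis) for 6 targets of BMP signals, with control mice in blue, MOCA mice in red and 1 symbol per replicate number. For Id1, Id2 and Id3 the groups are intermixed, and control replicate 1 is the lowest control; for Atoh8 every MOCA mouse is below every control mouse.

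Beyond the 10 members, 80 other symbols of the pathway were grouped by role, among them older and newer names of the same gene (Hfe2 and Hjv, Ctgf and Ccn2). Of these, 73 were in the deposited table and 63 passed the filter for testing. None was called (limma and edgeR; 0 of 63, against 0.666% of all tested genes with limma and 0.675% with edgeR, of which 0.275% were lower). DESeq2 called 6 of 63 (1 higher and 5 lower, against 3.5% of all tested genes in either direction and 1.67% lower). At an unadjusted limma p under 0.05, 17 of 63 were lower and 3 were higher, against 8.05% and 9.42% of all tested genes. The MOCA mice lay below all control mice for 10 of 63 and above them for 1, against 4.96% and 5.5%. Of the 63, 47 had a negative log2 fold change, against 48.9% of all tested genes, and their median was -0.12. With columns at equal sums 41 of 63 were negative.

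Of the 12 tested ligand genes, 11 had a negative log2 fold change (10 with columns at equal sums), the median was -0.32 and none was called by limma or edgeR. Bmp2, which with Bmp6 comes mainly from sinusoidal endothelial cells in the liver and drives hepcidin, was 36.0, 32.7, 39.4 and 33.7 in control mice and 28.5, 26.9, 24.1 and 27.1 in MOCA mice. Every MOCA mouse was below every control mouse. For Bmp2 the log2 fold change was -0.40 (SE 0.08), and its adjusted p was 0.0617 with limma, 0.0597 with edgeR and 0.00438 with DESeq2. Bmp6, named after its values were seen, was 5.62 to 6.38 in control and 3.48 to 6.12 in MOCA mice (limma adjusted p = 0.267). Among the other ligands, Bmp10, a circulating ligand, had a log2 fold change of -0.33, Bmp4 of -0.41 and the activin C subunit gene Inhbc of -0.48 (limma adjusted p of 0.26, 0.264 and 0.3), and without MOCA replicate 4 that of Inhbc was -0.27.

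Marker levels of liver cell types are given beside Bmp2. Of 7 sinusoidal endothelial cell markers, 6 had a negative log2 fold change (median -0.13), or 5 with columns at equal sums. At an unadjusted limma p under 0.05, 3 of the 7 were lower, against 8.05% of all tested genes. None of the 7 was called by limma, edgeR or DESeq2. The endothelial markers summed to 470 to 548 in control and 445 to 462 in MOCA mice. Of 7 stellate cell markers 5 had a negative log2 fold change, and all 7 Kupffer cell markers had a positive one. None of these was called by limma or edgeR. DESeq2 called 1 stellate cell marker, Reln, lower (adjusted p = 0.0219), against 1.67% of all tested genes. The summed level of the stellate cell markers was 502.04 to 548 in control and 417 to 502.7 in MOCA mice. That of the Kupffer cell markers was 256 to 311 in control and 268 to 367 in MOCA mice. The part of these levels in the ligand values was not tested.

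Among 16 tested receptors and coreceptors outside the members, 11 had a negative log2 fold change (9 with columns at equal sums) and none was called by limma or edgeR. Tfr2, a hepatocyte transferrin receptor that senses iron for hepcidin control, was 462, 543, 486 and 555 in control mice and 433, 399, 410 and 379 in MOCA mice. The groups did not overlap, and the log2 fold change was -0.33 (SE 0.08; adjusted p = 0.0835 with limma and 0.00676 with DESeq2). Hfe2, which encodes the BMP coreceptor hemojuvelin, was 25.0, 24.4, 15.8 and 19.4 in control mice and 37.4, 27.7, 25.1 and 39.5 in MOCA mice. It was the single pathway gene outside the members whose MOCA mice were all above the controls, by a narrow margin. On the log2 scale the difference was 0.59 (SE 0.17), with an adjusted p of 0.122 with limma and 0.0227 with DESeq2. The type II receptor gene Bmpr2 was 121 ± 11.1 and 118 ± 5.53 (limma adjusted p = 0.879; its sign turned with columns at equal sums and when control replicate 1 or 3 was left out). The TGF-beta coreceptor gene Tgfbr3 was 28.1 to 29.4 and 21.1 to 27.9, without overlap (limma adjusted p = 0.184).

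The extracellular regulators included Tmprss6, a hepatocyte protease that cleaves hemojuvelin and so restrains hepcidin. Its level was 680 to 825 in control and 592 to 644 in MOCA mice, without overlap, a difference of -0.29 on the log2 scale (SE 0.08; adjusted p = 0.119 with limma and 0.0176 with DESeq2). Bambi, a decoy receptor induced by the pathway, was 3.72 ± 0.665 in control and 2.30 ± 0.290 in MOCA mice, also without overlap (log2 fold change -0.51, limma adjusted p = 0.0955). Ltbp1, which tethers latent TGF-beta, had a log2 fold change of -0.31, and Twsg1, a BMP-binding protein, of 0.02 (limma adjusted p of 0.224 and 0.925; the sign of Twsg1 turned with upper quartile scaling and without control replicate 1 or 4 or MOCA replicate 1). None of the 10 tested genes of this list was called by limma or edgeR.

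Inside the cell, Smurf1, a ubiquitin ligase that marks SMAD1 and SMAD5 for degradation, was 25.8, 24.1, 29.6 and 24.2 in control mice and 19.1, 20.8, 17.9 and 18.4 in MOCA mice. The groups did not overlap. For Smurf1 the log2 fold change was -0.42 (SE 0.09), and its adjusted p was 0.0598 with limma, 0.0539 with edgeR and 0.00442 with DESeq2. Smad3, a receptor-regulated SMAD of the TGF-beta branch, was 23.8 to 32.5 in control and 18.7 to 23.7 in MOCA mice, barely without overlap (log2 fold change -0.37, adjusted p = 0.122 with limma and 0.0481 with DESeq2). The corepressor gene Ski had a log2 fold change of -0.29, the phosphatase gene Ppm1a of -0.12 and the ubiquitin ligase gene Smurf2 of -0.15 (limma adjusted p of 0.14, 0.465 and 0.351). None of the 12 tested genes of this list was called by limma or edgeR.

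None of the other tested targets of BMP signals passed the test. All 6 had a negative log2 fold change (5 with columns at equal sums), with a median of -0.28, against 48.9% negative among all tested genes. Hamp, which encodes hepcidin, was 438, 663, 602 and 496 in control mice and 506, 397, 441 and 373 in MOCA mice, with overlapping groups. Its log2 fold change was -0.35 (SE 0.13, limma adjusted p = 0.222). Atoh8, a transcription factor gene induced by BMP and iron in the liver, was 45.6, 43.8, 56.5 and 44.5 in control mice and 43.0, 36.6, 36.2 and 28.7 in MOCA mice. These groups did not overlap, by a narrow margin (log2 fold change -0.39, SE 0.12, limma adjusted p = 0.145). Hamp2, a close paralog of Hamp whose reads may not be separable from it, was 112 ± 39.7 and 109 ± 42.6 (limma adjusted p = 0.946), a sign that turned with columns at equal sums and without replicate 2 or 3 of either group. Id4 was 1.37 ± 0.285 and 0.968 ± 0.355 (limma adjusted p = 0.385).

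Hepatocyte and erythroid marker levels are given beside these iron-related genes. All 7 hepatocyte markers had a negative log2 fold change (median -0.16; 6 with columns at equal sums), and none was called by limma or edgeR. DESeq2 called 1 of them lower, Serpina1a (adjusted p = 0.0321), against 1.67% of all tested genes. Their summed level was 86522 to 102307 in control and 77121 to 89222 in MOCA mice. Most of this sum was Alb, at 60489 to 75231 in control and 57170 to 66297 in MOCA mice. The 7 erythroid markers summed to 185 to 272 in control and 263 to 375 in MOCA mice; the sums overlapped, and of the 5 tested 4 were positive and none was called by limma or edgeR. DESeq2 called 2 of the 5 higher, Hba-a1 and Alas2, a heme synthesis gene of erythroid cells (adjusted p of 0.00114 and 0.0481). Over all 12008 tested genes DESeq2 called 220 higher. Hba-a1, an alpha globin gene with a near-identical copy, was 143 to 211 in control and 212 to 320 in MOCA mice (log2 fold change 0.69, limma adjusted p = 0.0617). Its groups did not overlap, by a narrow margin, and 5.5% of all tested genes were higher in MOCA livers without overlap. The globin gene Hbb-bs was listed at 0 in all but control replicate 3. Other beta globin genes, Hbb-b1, Hbb-b2 and Hbb-bt, were outside the marker list and were among the genes that DESeq2 called (3.5% of all tested genes). The part of these markers in the values of Hamp, Tfr2 and Tmprss6 was not tested.

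Targets of TGF-beta signals showed no shared direction. Of 7 tested, 4 had a negative and 3 a positive log2 fold change (3 negative with columns at equal sums), the median was -0.01 and none was called. Ctgf, a matricellular protein gene, was 7.18 ± 1.18 and 5.56 ± 1.84, and the collagen gene Col1a1 was 5.59 ± 1.23 and 7.02 ± 2.11 (limma adjusted p of 0.366 and 0.493). Thbs1, Col1a2 and Tgfbi had log2 fold changes of 0.16, 0.11 and -0.01 (limma adjusted p of 0.607, 0.769 and 0.951). The sign of Col1a2 turned without MOCA replicate 3, and that of Tgfbi with columns at equal sums and without control replicate 1 or MOCA replicate 1 or 2.

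**Figure D4:**
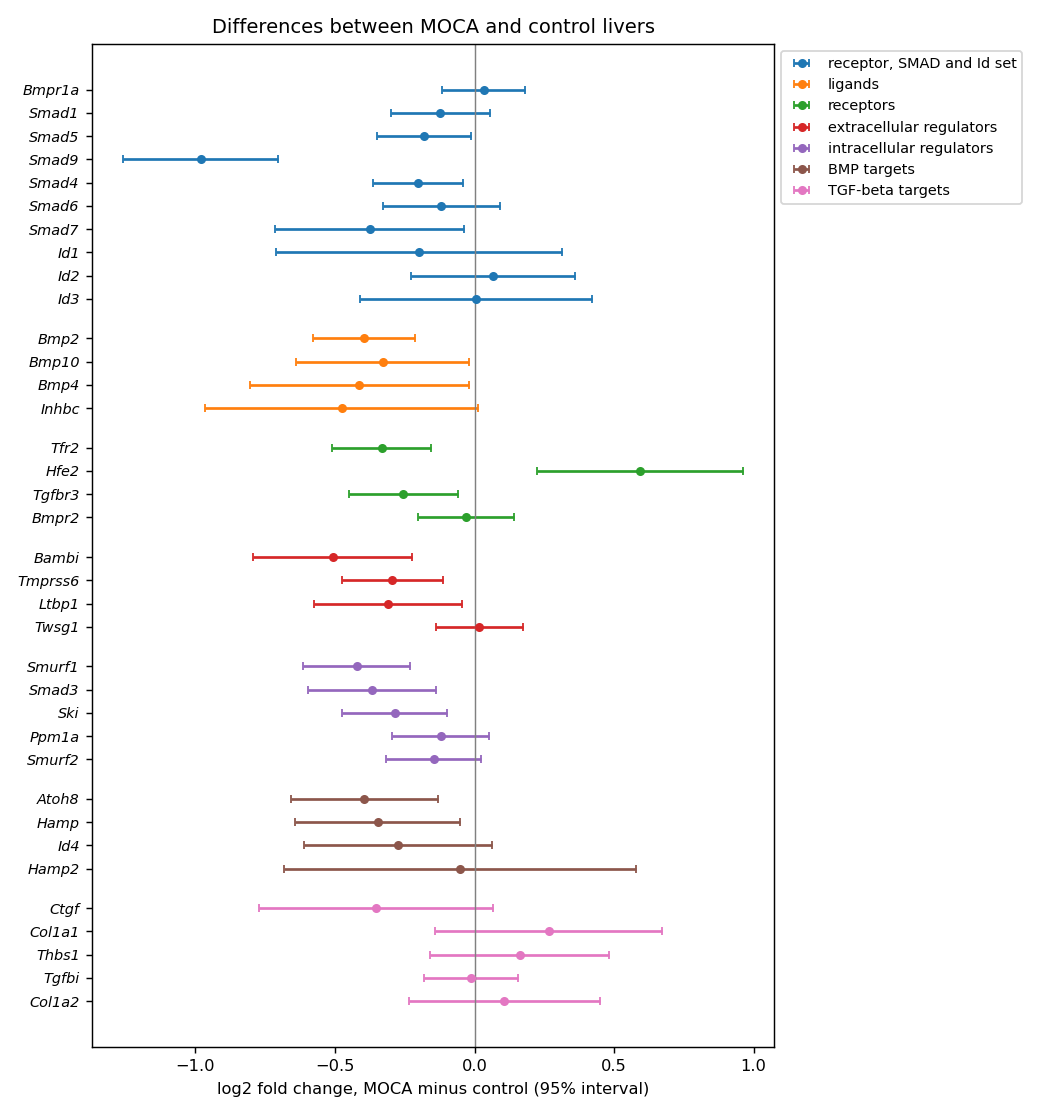
Log2 fold change, MOCA minus control (horizontal axis), of the 10 members and 26 other pathway genes grouped by role, with 95% intervals that are not adjusted for the number of genes. Smad9 lies farthest to the left at -0.98, Hfe2 farthest to the right at 0.59, and the other 34 lie between them. Since Smad9 was chosen for its lower level, its interval does not allow for that choice and is no test.

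The genes whose pattern over the 8 mice was closest to that of Smad9 were sought among 9273 tested genes with a mean of at least 5, by the root mean square distance of log2 differences from the control mean. The 5 closest were Caln1 (0.18), Pard3b (0.21), Csad (0.24), Sptb (0.26) and Park2 (0.26). Caln1 was 8.52 to 11.8 in control and 4.15 to 6.68 in MOCA mice, Csad, an enzyme gene of taurine synthesis, was 266 to 386 and 99.3 to 181, and Park2, a ubiquitin ligase gene, was 6.63 to 10.2 and 3.42 to 4.26. All 5 were lower in every MOCA mouse than in every control mouse, which follows from a search for genes like Smad9. None of the 5 is a member or a gene of the pathway lists. For Id1 the 5 closest were Tmem256 (0.21), Sds (0.22), Dohh (0.23), Smim4 (0.24) and Ppp1r3b (0.24), again outside the pathway lists.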

How the data were processed

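Directional libraries were made from 200 ng of liver RNA after ribosomal RNA depletion, per the labels' protocols. The tools were Bowtie2, Trimmomatic 0.38, edgeR and RSEM on mm10, per the submitters' processing notes, which give them no role or order. The authors deposited 1 table of normalised signal, with 1 column per mouse; dividing each column by its smallest increment gave whole reads for 100% of values (tolerance 0.001), and the factor per column equalled edgeR's TMM factor, so the values are TMM-scaled CPM. No listed gene had fewer than 8 reads in total.

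The 12008 genes that reached 1 in 4 or more libraries were tested in R 4.3.3 by limma 3.58.1 (eBayes with trend, no covariate) on log2(value + 1). A gene was called at a Benjamini-Hochberg adjusted p under 0.05. The recovered reads were also tested with DESeq2 1.42.0 and with edgeR 4.0.16's quasi-likelihood test, which called 81 genes. Other settings were 2 pseudocounts (0.25 and 4), no filter, 3 rescalings, eBayes without trend or robust, a replicate block and leaving out each mouse in turn. The limma, edgeR and DESeq2 fits were tested on simulated reads with 2-fold changes only. Smaller changes were not simulated, so the power to find them was not measured. Members, lists and tests were chosen with earlier results of these data known. The rule for named genes takes all members, every called gene of each pathway list or else the 3 with the smallest p and the 2 with the highest mean, and the 5 genes most like Smad9 and Id1. Positions and exon lengths are from GENCODE M21 on mm10, promoter windows from RefSeq.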

Additional observations from a re-analysis of the deposited data

Results flagged for a closer look

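In 72 groups of 4 mice (36 named genes in 2 groups), 1 mouse stood far from the others of its group by Dixon's test, where chance gives about 1 in 20. Atoh8 was 56.5 in control replicate 3 and 43.8 to 45.6 in the other control mice, and the gap made up 0.857 of the group's range.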

How the results depend on the processing

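None of the 9 members other than Smad9 was called under any of the 19 other settings. The log2 fold change of Smad9 was between -1.05 and -0.89 over them. The counts of all genes called higher and lower were 20 and 10 with the replicate block and 220 and 200 with DESeq2. Genes called higher numbered 131 with columns at equal sums, and genes called lower 53 with robust eBayes and 51 with upper quartile scaling; the causes were not tested. Leaving out 1 mouse at a time, which also leaves fewer samples, gave 21 to 42 higher and 8 to 35 lower, the fewest without control replicate 3. The higher count moved by over 1.5 times without control replicate 1 (24), 3 (21) or 4 (28) and without MOCA replicate 2 (26) or 4 (23). The lower count did so without control replicate 1 (21), 2 (11), 3 (8) or 4 (12) and without MOCA replicate 2 (16) or 4 (16). Of the pathway genes outside the members, 6 were called with DESeq2 (Bmp2, Hfe2, Tfr2, Tmprss6, Smad3 and Smurf1), 2 with robust eBayes and 2 with upper quartile scaling (Bmp2 and Smurf1 in both), and 0 whenever a mouse was left out. Signs turned, with none called, with columns at equal sums for Bmpr2 (0.0222), Hamp2 (0.00011) and Tgfbi (0.0391) and with upper quartile scaling for Id3 (-0.0129) and Twsg1 (-0.000498). When a mouse was left out the log2 fold change ranged from -0.0118 to 0.0665 for Bmpr1a, -0.0918 to 0.0032 for Bmpr2, -0.0407 to 0.20 for Col1a2, -0.25 to 0.14 for Hamp2, -0.0424 to 0.14 for Id2, -0.16 to 0.13 for Id3, -0.0495 to 0.0218 for Tgfbi and -0.0141 to 0.0442 for Twsg1. Without turning sign, uncalled values moved by over 1.5 times without MOCA replicate 4 for Smad7 (-0.24), Inhbc (-0.27) and Ctgf (-0.17), without control replicate 3 for Smad1 (-0.08), Smad6 (-0.07) and Ppm1a (-0.08), without MOCA replicate 3 or a control mouse for Col1a1 (lowest 0.11) and Thbs1 (lowest 0.04), and in 6 of the 8 fits for Id1 (-0.41 to -0.06). Mice with the same replicate number did not deviate together, as the correlation of their deviations was -0.0735 to 0.036. Of 4 control mice, 0 were closest to the MOCA mouse of their own number. These values show no pairing by number, but they cannot exclude one by age, housing or processing. Depth limits Id1 (112 to 243 reads per library) and Smad6 (126 to 171 reads) most among the members.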

Other observations

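Skil, an inhibitor of SMAD signalling that TGF-beta induces, was named after its values were seen. It was 48.0, 46.1, 40.6 and 31.1 in control mice and 75.7, 35.1, 40.7 and 20.6 in MOCA mice, so that MOCA mice held both the highest and the lowest level. MOCA replicate 1 was the highest MOCA mouse for Skil and for Smad7 (47.4). MOCA replicate 4 was the lowest for both (20.6 and 25.7). In control mice the extremes went opposite ways. Control replicate 1 was the highest control for Skil (48.0) and the lowest for Smad7 (38.0). Control replicate 4 was the lowest control for Skil (31.1) and the highest for Smad7 (49.5). The log2 fold change of Skil was -0.08 (SE 0.30, limma adjusted p = 0.924).

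Also named after their values were seen, Tgif1, a SMAD corepressor gene, was 11.5 to 15.7 in control and 15.0 to 18.4 in MOCA mice (limma adjusted p = 0.142), and Nedd4l, a ubiquitin ligase gene, was 72.3 ± 6.56 and 86.0 ± 10.5 (limma adjusted p = 0.235). The groups overlapped for each of these genes. Smad2, the partner of Smad3 in the TGF-beta branch, was 22.7 ± 2.41 and 23.6 ± 0.769 (limma adjusted p = 0.781). Bmp7 was 0.813 to 1.55 in control and 0.489 to 0.709 in MOCA mice without overlap, and was too low for the test.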
